A study of Gallus gallus with 10 samples.

Results

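The genes of the first component of complement, C1QA (ENSGALG00000021569), C1QB (ENSGALG00000004771), C1QC (ENSGALG00000029669) and C1S (ENSGALG00000014603), were followed in RNA from the preoptic anterior hypothalamus (PO/AH) of young broiler chicks. They are 4 of the 11324 genes in the counts, they were taken by their gene identifiers, and all 4 passed the filter on low counts, which left 8585 genes. The genes were selected on their fold change between these same libraries, in which they were known to be higher after the mimic, so their differences between the groups are given as a description, without p-values.

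The groups compared were Cobb broiler chicks that had received a miR-200a mimic and naïve chicks. In 5 libraries the chicks had received an injection of hsa-miR-200a-3p mimic, a synthetic RNA with the sequence of the human microRNA. It was given on day 3 after hatching, and the tissue was taken 6 h later. The study gives the site as the PO/AH in its methods and as the third ventricle in its results. The other 5 libraries came from naïve chicks of the same age, which were not injected. A group given a control mimic was not part of the counts analysed here, so the effect of the microRNA and that of the injection cannot be told apart. Neither the labels nor the methods state that each library came from its own chick, and the spread between libraries may therefore be technical in part.

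The first component of complement starts the classical pathway. Its recognition part, C1q, is built from chains A, B and C in equal number, which are the products of C1QA, C1QB and C1QC. Each chain has a collagen-like stalk and a globular head that binds antibodies, pathogens and cell debris. C1s, the product of C1S, is a serine protease that is cut and activated by its partner C1r on the C1q stalk and then cleaves the next components of the pathway. In the mammalian brain most C1q is made by microglia, the resident macrophages, and C1q on synapses marks them for removal.

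In the RefSeq annotation of assembly GRCg7b the C1q genes lie side by side in the order C1QB, C1QC and C1QA, with no other annotated gene between them. C1S lies next to C1R, the gene of its partner protease, on one side and next to LPCAT3, a phospholipid acyltransferase gene, on the other. The counts were made on another assembly, galGal5, and carry gene identifiers without names, so C1R itself could not be looked up in them and was not analysed here.

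Counts of unique molecular identifiers (UMIs), each of which stands for 1 captured transcript, summed to 3598695 to 4511597 per mimic library (median 4162068) and to 2104121 to 5503185 per naïve library (median 5059334). By an exact permutation test, two-sided, the mean totals of the groups were not distinguishable (p = 0.762). The mimic libraries carry the deposited numbers 2, 4, 6, 9 and 10, and the naïve libraries the numbers 2, 3, 4, 6 and 7. Naïve library 7 had the lowest total and stood apart on the first principal component, with a score of −24.66, whereas the other 4 naïve libraries lay between −2.16 and 4.51. Differences of the 4 genes and of their ratios are also given without it. Levels are given as CPM, which adjust each count for the size of its library after TMM scaling.

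All of the C1q chains had a higher level in every mimic library than in any naïve library. Their summed level was 138.3 ± 25.1 CPM (SD, n = 5) after the mimic and 64.4 ± 11.9 CPM (SD, n = 5) in naïve chicks, a ratio of the means of 2.15 (2.26 without naïve library 7). C1S, which was at a few counts per naïve library, differed by a larger factor than the chains did, and its levels did not overlap between the groups either. In whole tissue a change in the number of cells of a type and a change in the RNA of each cell cannot be told apart.

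C1QA stood at 42.6, 29.5, 63.7, 35.3 and 39.1 CPM in mimic libraries 2, 4, 6, 9 and 10, and at 15.7, 15.8, 23.5, 21.6 and 23.8 CPM in naïve libraries 2, 3, 4, 6 and 7. Mimic library 6 was the highest of all, and the lowest mimic library, number 4, lay 5.66 CPM above the highest naïve library. The means were 42.04 ± 13.03 CPM (SD, n = 5) after the mimic and 20.1 ± 4.04 CPM (SD, n = 5) in naïve chicks. The fitted log2 fold change was 1.08 with a standard error of 0.21. It was 0.88 without mimic library 6, which lowered it most, and 1.146 without naïve library 7.

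C1QB had the most even level of the 4 genes after the mimic. It stood at 51.3, 50.1, 46.5, 39.0 and 46.6 CPM in mimic libraries 2, 4, 6, 9 and 10, and at 16.6, 16.8, 21.3, 20.98 and 24.3 CPM in naïve libraries 2, 3, 4, 6 and 7. The gap between the groups was 14.7 CPM, the widest of the 4 genes. The mean was 46.7 ± 4.78 CPM (SD, n = 5) after the mimic and 20.02 ± 3.28 CPM (SD, n = 5) in naïve chicks. The coefficient of variation was 10.2% after the mimic and 16.4% in naïve chicks. The log2 fold change was 1.24 with a standard error of 0.15, and 1.31 without naïve library 7.

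C1QC stood at 63.6, 36.8, 62.1, 43.4 and 41.96 CPM in mimic libraries 2, 4, 6, 9 and 10, and at 21.1, 18.1, 28.3, 24.6 and 29.4 CPM in naïve libraries 2, 3, 4, 6 and 7. Mimic libraries 2 and 6 were well above the other 3 mimic libraries, and the lowest mimic library lay 7.39 CPM above the highest naïve library. The means were 49.6 ± 12.4 CPM (SD, n = 5) after the mimic and 24.3 ± 4.77 CPM (SD, n = 5) in naïve chicks. The log2 fold change was 1.04 with a standard error of 0.19, and 1.11 without naïve library 7.

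C1S had 83, 38, 52, 37 and 38 counts in mimic libraries 2, 4, 6, 9 and 10, against 4, 5, 9, 12 and 4 counts in naïve libraries 2, 3, 4, 6 and 7. The exact Poisson 95% interval for a count of 4 runs from 1.09 to 10.2, and the interval for the lowest mimic count, 37, runs from 26.1 to 51.0. In CPM the mimic libraries stood at 23.3, 9.92, 11.8, 8.55 and 9.84, and the naïve libraries at 0.72, 0.88, 2.40, 2.31 and 2.03. Mimic library 2, which was also the highest in C1QB and C1QC, stood well above the next library, number 6, in C1S. The log2 fold change was 2.98 with a standard error of 0.39, a factor of 7.87. It was 2.65 without mimic library 2 and 3.03 without naïve library 7.

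**Figure D1:**
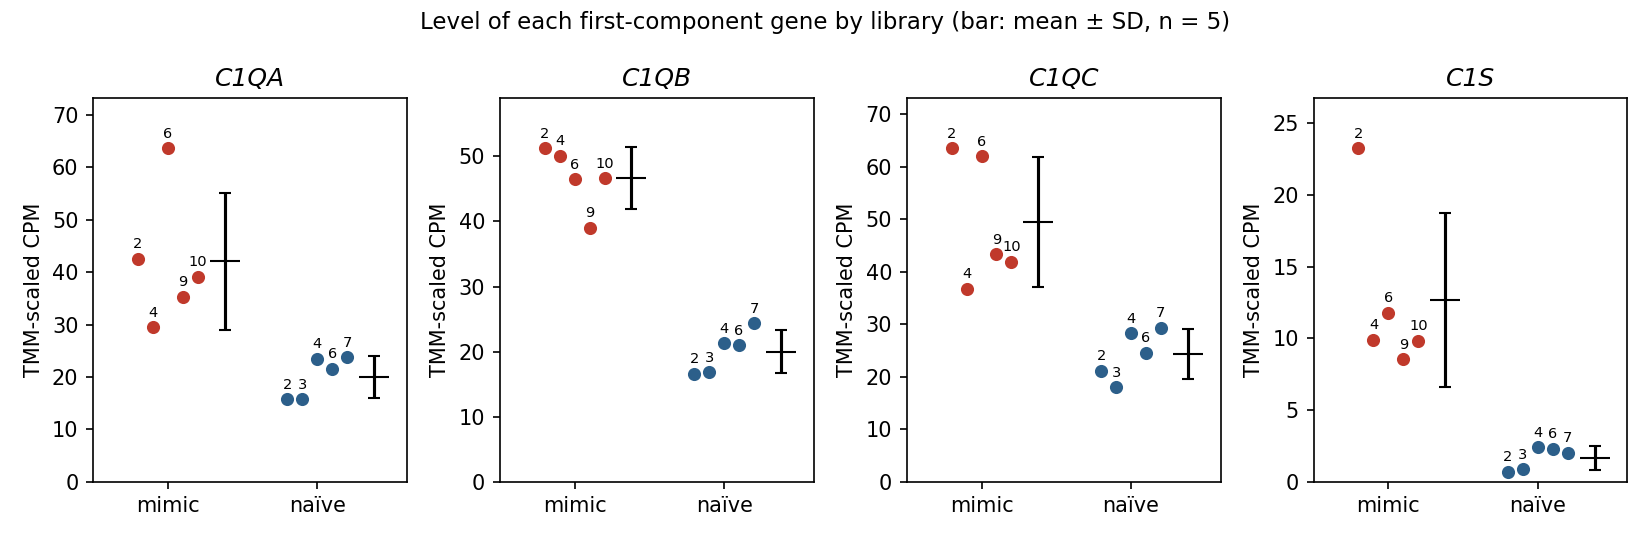
Level of each gene (y axis, TMM-scaled CPM from 0) in the 5 mimic libraries (red) and the 5 naïve libraries (blue), with the deposited library number above each point and the mean ± SD beside each group. No mimic library overlaps a naïve library in any panel, C1QB is the tightest of the mimic groups (39.0 to 51.3 CPM), and mimic library 2 stands alone for C1S at 23.3 CPM.

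Over all genes tested, edgeR's quasi-likelihood test at an adjusted p of 0.05, a fold of 1.5 and a highest count of 30 called 0.14% higher and 0.0233% lower after the mimic. C1QB, C1QC and C1S were among those called higher, C1QA was not, and none of the 4 was called lower. Every mimic library lay above every naïve library in 1.09% of all genes and in all 4 of these, and below in 0.513% of all genes. The median log2 fold change was 1.16 over the 4 genes and −0.004 over all genes tested. Since the genes were chosen by this contrast, nothing is read from these shares. C1S passed the filter on low counts through the mimic group, in which all 5 libraries reached its minimum of 2.34 unscaled CPM, against 2 of the 5 naïve libraries. With 1 library left out, C1QC was called in 2 of the 10 fits, those without mimic library 4 and without naïve library 7, and C1QA in 1, that without mimic library 4.

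**Figure D2:**
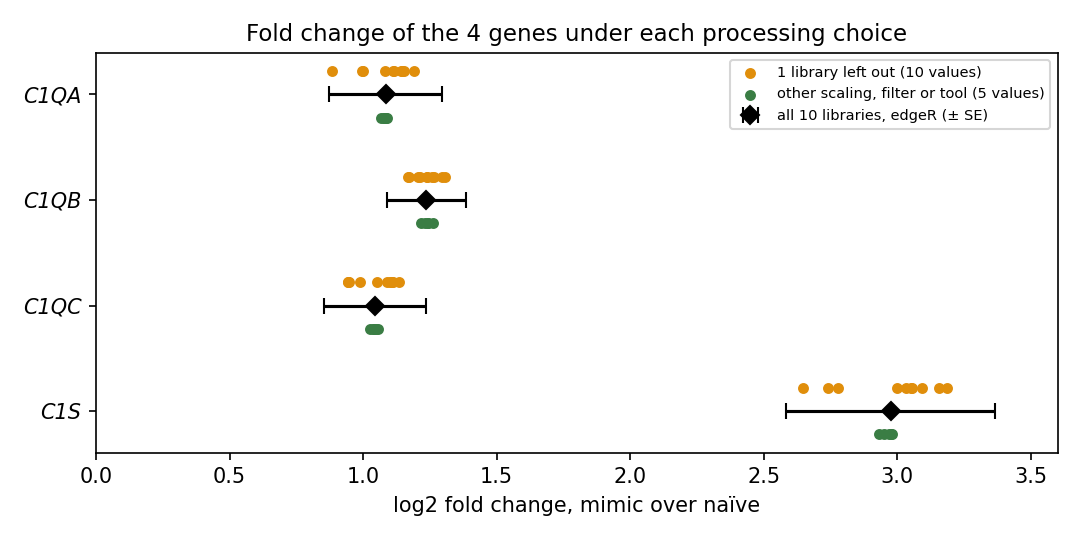
Log2 fold change of each gene, mimic over naïve (x axis), from the edgeR fit of all 10 libraries (black, ± standard error), with each library left out in turn (orange) and with another scaling, filter or tool (green). The chains lie together between 0.88 and 1.31 under every setting shown, and C1S lies apart between 2.65 and 3.19.

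Among the naïve libraries, 2 and 3 were the lowest in all 4 genes, and library 7 was the highest in each of the chains but not in C1S. For the chains this order ran roughly against depth. Naïve libraries 2 and 3 had the largest totals, 5503185 and 5267087 counts, and library 7 the smallest, 2104121 counts. The summed C1q level was 53.5, 50.7, 73.1, 67.2 and 77.6 CPM in naïve libraries 2, 3, 4, 6 and 7. After the mimic there was no such order, since library 2, with the smallest total, and library 6, with the largest, held the 2 highest summed levels, 157.5 and 172.2 CPM. At near-equal totals, mimic library 2 (3598695 counts) held 157.5 CPM of C1q and mimic library 4 (3821200 counts) held 116.4 CPM. Naïve library 4 (3620681 counts) held 73.1 CPM. The part of depth in these levels was not tested.

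The proportions of the chains were close to constant in naïve chicks and less so after the mimic. C1QA made up 30.0 ± 4.46% of the summed C1q counts after the mimic and 31.1 ± 1.13% in naïve chicks (SD, n = 5 in each group). C1QB made up 34.4 ± 5.90% after the mimic and 31.2 ± 1.43% in naïve chicks, and C1QC made up 35.6 ± 3.47% after the mimic and 37.7 ± 1.55% in naïve chicks (SD, n = 5 in each group). The groups overlapped for each chain. A share of UMI counts also depends on how well the 3′ end of each gene is annotated, so it is read between libraries and not as the ratio of the proteins.

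Single mimic libraries differed in these shares by more than counting error. In mimic library 4 C1QB made up 43.0% of 446 C1q counts (exact 95% interval 38.4 to 47.8%), and in mimic library 6 it made up 27.0% of 760 counts (23.8 to 30.3%). C1QA went the other way, with 25.3% in mimic library 4 (21.4 to 29.6%) and 37.0% in mimic library 6 (33.5 to 40.5%). C1QC ranged from 31.6% in mimic library 4 (27.3 to 36.2%) to 40.4% in mimic library 2 (36.3 to 44.6%). The naïve shares ran only from 29.4 to 32.1% for C1QA, from 29.2 to 33.2% for C1QB and from 35.6 to 39.5% for C1QC, and all of their intervals overlapped within a chain. The intervals cover counting error only and are wider in naïve libraries, which held 153 to 349 C1q counts, than in mimic libraries, which held 446 to 760.

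**Figure D3:**
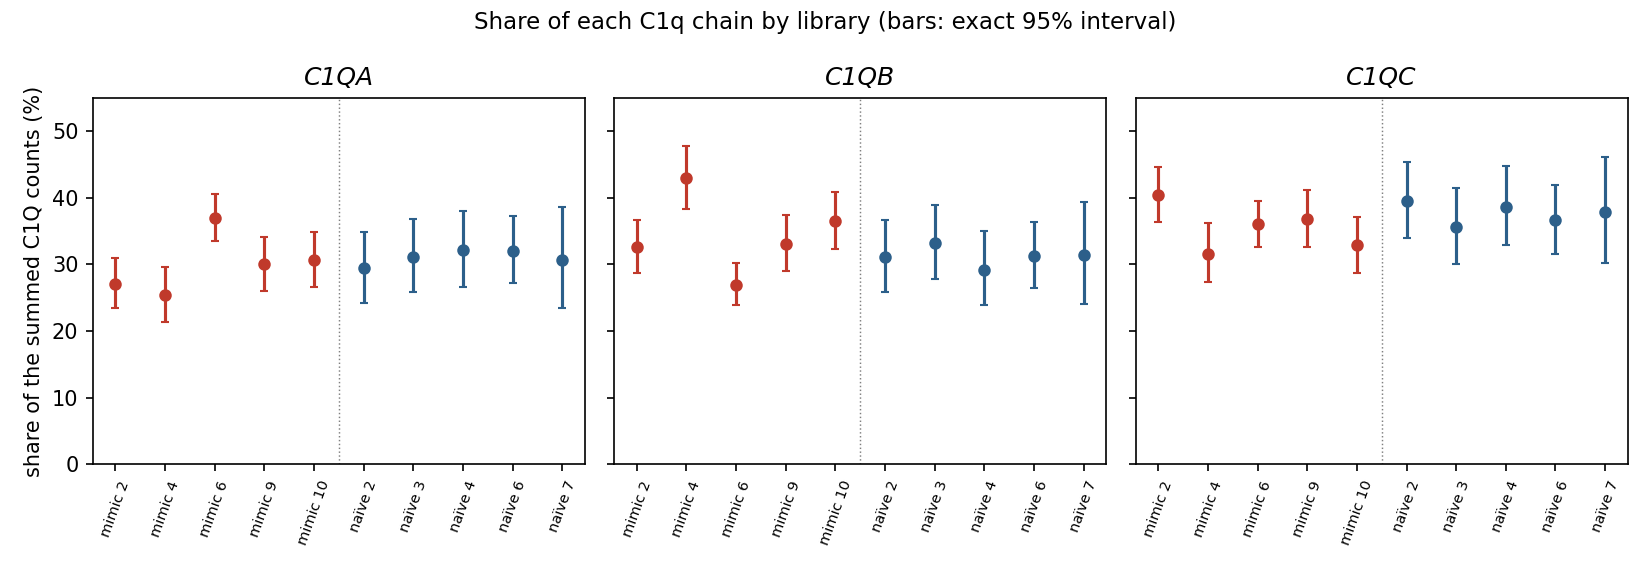
Share of each chain in the summed C1q counts of a library (y axis, percent from 0), with exact 95% intervals, for the mimic libraries (red, left of the dotted line) and the naïve libraries (blue). The naïve points are nearly level, whereas C1QB in mimic libraries 4 (43.0%) and 6 (27.0%) and C1QA in the same libraries (25.3% and 37.0%) have intervals that do not overlap.

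The ratios of the chains in each library show the same spread without any scaling to library size. The log2 ratio of C1QB to C1QA was 0.27, 0.76, −0.45, 0.14 and 0.25 in mimic libraries 2, 4, 6, 9 and 10, and 0.08, 0.09, −0.14, −0.04 and 0.03 in naïve libraries 2, 3, 4, 6 and 7. Its SD was 0.43 after the mimic, where counting alone gives 0.16, and 0.095 in naïve chicks, where counting alone gives 0.23. For C1QC to C1QB the SD was 0.35 after the mimic and 0.12 in naïve chicks, where counting alone gives 0.15 after the mimic and 0.22 in naïve chicks. For C1QC to C1QA it was 0.23 after the mimic and 0.096 in naïve chicks, where counting alone gives 0.16 after the mimic and 0.22 in naïve chicks. The naïve ratios thus varied less than counting predicts, which with 5 libraries is a description only, and the difference in spread between the groups was not tested.

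The mean ratios between the chains were not clearly apart between the groups, which does not show that they were equal. The difference was smaller than its standard error for C1QB to C1QA and C1QC to C1QA, and slightly larger for C1QC to C1QB. The mean log2 ratio differed between the groups by 0.19 for C1QB to C1QA (standard error 0.20), by −0.02 for C1QC to C1QA (standard error 0.11) and by −0.21 for C1QC to C1QB (standard error 0.17), mimic minus naïve in each case. The groups overlapped in all 3 ratios. The sign of the C1QC to C1QA difference turned without mimic library 6, when it was 0.05, and without mimic library 10 or naïve library 2, when it was 0.013. Without mimic library 4 the difference was 0.047 for C1QB to C1QA and −0.088 for C1QC to C1QB, and without mimic library 6 that for C1QB to C1QA was 0.35. Without naïve library 7 it was 0.19 for C1QB to C1QA, −0.02 for C1QC to C1QA and −0.21 for C1QC to C1QB.

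C1S stood higher relative to the chains after the mimic. The log2 ratio of C1S to the mean of the chains was −1.15, −1.92, −2.26, −2.18 and −2.09 in mimic libraries 2, 4, 6, 9 and 10, and −4.45, −4.14, −3.26, −3.22 and −3.51 in naïve libraries 2, 3, 4, 6 and 7. Every mimic library lay above every naïve library. The mean was −1.92 ± 0.45 after the mimic and −3.72 ± 0.55 in naïve chicks (SD, n = 5 in each group), a difference of 1.80 (standard error 0.32) or a factor of 3.47. In counts, C1S stood at 0.26 per chain after the mimic and at 0.076 per chain in naïve chicks, as geometric means. The naïve spread of 0.55 is near the 0.62 that counting alone gives, since the naïve libraries together held only 34 C1S counts, against 248 after the mimic. The difference was 1.603 without mimic library 2 and 1.85 without naïve library 7, and with a pseudocount of 2 in place of 0.5 it was 1.54. C1S and the chains were chosen on this contrast, and C1S passed the filter on low counts through the mimic group. The difference and the lack of overlap are therefore a description only.

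**Figure D4:**
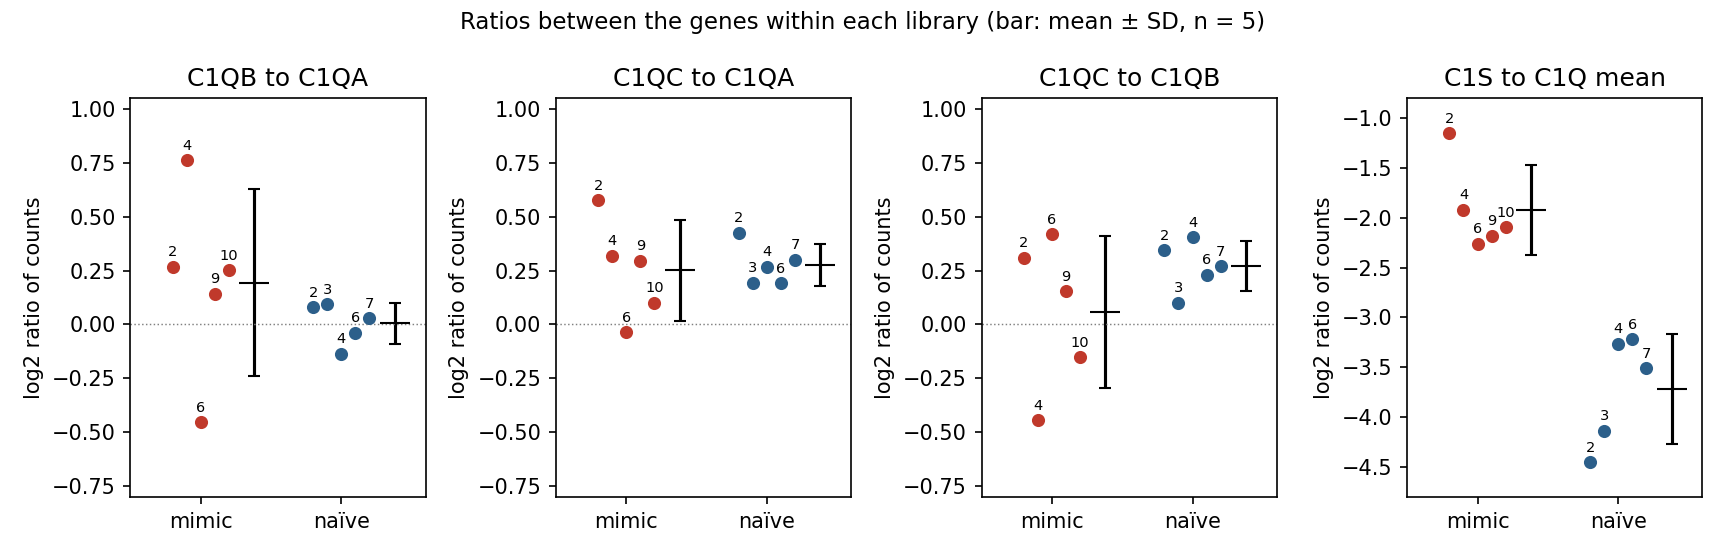
Log2 ratio of the counts of pairs of genes in each library (y axis, a pseudocount of 0.5 added to each count), with library numbers and the mean ± SD beside each group. The mimic libraries (red) are more scattered than the naïve libraries (blue) in the ratios between chains and overlap them, and in the ratio of C1S to the mean of the chains they lie above them, at −2.26 or higher against −3.22 or lower.

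LPCAT3 (ENSGALG00000014570), the annotated neighbour of C1S, did not share its direction. Its level was 80.9 ± 7.49 CPM (SD, n = 5) after the mimic and 109.2 ± 13.97 CPM (SD, n = 5) in naïve chicks. By edgeR its log2 fold change was −0.43, with a standard error of 0.12 and an adjusted p of 0.320. Without naïve library 7, the highest, the log2 fold change was −0.36. The mimic libraries ranged from 71.8 to 91.6 CPM and the naïve libraries from 93.4 to 129.8 CPM, without overlap. LPCAT3 was among the genes the study listed as lower in these libraries, so this comparison is a description.

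The genes whose level followed the chains most closely were then sought among all genes tested. The measure was the SD over the 10 libraries of the log2 ratio of a gene to the mean of the 3 chains, which is small where a gene keeps a constant proportion to them. Of 8582 genes ranked, P2RY13 (ENSGALG00000039432), a purine receptor gene of microglia, had the smallest SD, 0.17. SPI1 (ENSGALG00000008127), the transcription factor gene of macrophages and microglia, was next with 0.20. STAT3, a transcription factor gene of cytokine signaling, had 0.25, and IL2RG, a receptor chain gene of several interleukins, 0.25. A gene without a symbol at hand, ENSGALG00000026970, was in place 5 with 0.26. TLR2A, a Toll-like receptor gene, was in place 6 with 0.28. Only 118 of the ranked genes had a symbol, taken from the study's gene tables, so which genes can be named here depends on those tables. The median over all ranked genes was 0.69. HPGDS and TREM2, which were listed for microglia as P2RY13 and SPI1 were, came in places 1245 and 8266, with 0.58 and 1.09. C1S, whose larger difference between the groups adds to this SD, was in place 7376 with an SD of 0.90. The chains themselves had 0.21 (C1QA), 0.28 (C1QB) and 0.16 (C1QC), each against the mean of the other chains. That mean rests on fewer genes than the mean of the 3 chains, and P2RY13 and SPI1 were picked as the smallest. The SDs of the chains are therefore not compared with theirs.

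This closeness came largely from the difference between the groups, which the study had used to list these genes. P2RY13 and SPI1 stayed within places 1 to 3 whichever library was left out. When only the spread within the groups was counted, an alternative chosen after seeing the data, SPI1 came in place 23 and P2RY13 in place 78 of 8582. STAT3 came in place 265, TLR2A in place 662, IL2RG in place 1255 and C1S in place 4561. Ratios of low counts are noisier, which lowers the place of weakly expressed genes in this ranking.

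P2RY13 stood at 22.4, 21.9, 27.2, 15.2 and 20.7 CPM in mimic libraries 2, 4, 6, 9 and 10, and at 7.59, 8.42, 11.47, 11.4 and 14.2 CPM in naïve libraries 2, 3, 4, 6 and 7. Mimic library 6 was the highest for P2RY13 as for the summed C1q, and naïve library 7 the highest of its group in both. The lowest libraries differed, with mimic library 4 and naïve library 3 for the summed C1q, and mimic library 9 and naïve library 2 for P2RY13. The log2 ratio of the chains to P2RY13 was 1.07 ± 0.21 after the mimic and 0.99 ± 0.12 in naïve chicks (SD, n = 5 in each group), a difference of 0.08 with a standard error of 0.11 (0.04 without naïve library 7). This difference was smaller than its standard error, and the ratios of the groups overlapped. P2RY13 came first in a ranking by the spread of this same ratio over all libraries. Such a ranking favours a small difference between the groups, so nothing is read from it.

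SPI1 stood at 16.8, 11.7, 15.6, 12.01 and 15.8 CPM in mimic libraries 2, 4, 6, 9 and 10, and at 6.69, 7.54, 8.80, 8.09 and 9.13 CPM in naïve libraries 2, 3, 4, 6 and 7. The log2 ratio of the chains to SPI1 was 1.63 ± 0.16 after the mimic and 1.35 ± 0.14 in naïve chicks (SD, n = 5 in each group), a difference of 0.28 with a standard error of 0.09 (0.31 without naïve library 7). This difference was larger than its standard error, although the mimic ratios, from 1.40 to 1.83, and the naïve ratios, from 1.11 to 1.45, overlapped.

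TREM2 (ENSGALG00000023781), a lipid receptor gene of microglia, lay the other way. Its level was 9.72 ± 2.50 CPM (SD, n = 5) after the mimic and 17.6 ± 4.57 CPM (SD, n = 5) in naïve chicks. By edgeR its log2 fold change was −0.85, with a standard error of 0.23 and an adjusted p of 0.320. The mimic libraries ranged from 6.80 to 13.2 CPM and the naïve libraries from 13.7 to 23.2 CPM, without overlap. TREM2 was among the genes the study listed as lower in these libraries, so these values are a description. The log2 ratio of the chains to TREM2 ranged from 1.54 to 2.98 in mimic libraries and from 0.04 to 0.74 in naïve libraries. Mimic library 6 had the most C1q and the least TREM2, 6.80 CPM, of all libraries. In naïve chicks, libraries 2 and 3 were the lowest in both, with 13.7 and 13.9 CPM of TREM2. Naïve libraries 4 and 6 held 23.2 and 21.8 CPM of TREM2, and library 7, the highest in C1q, held 15.2 CPM.

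**Figure D5:**
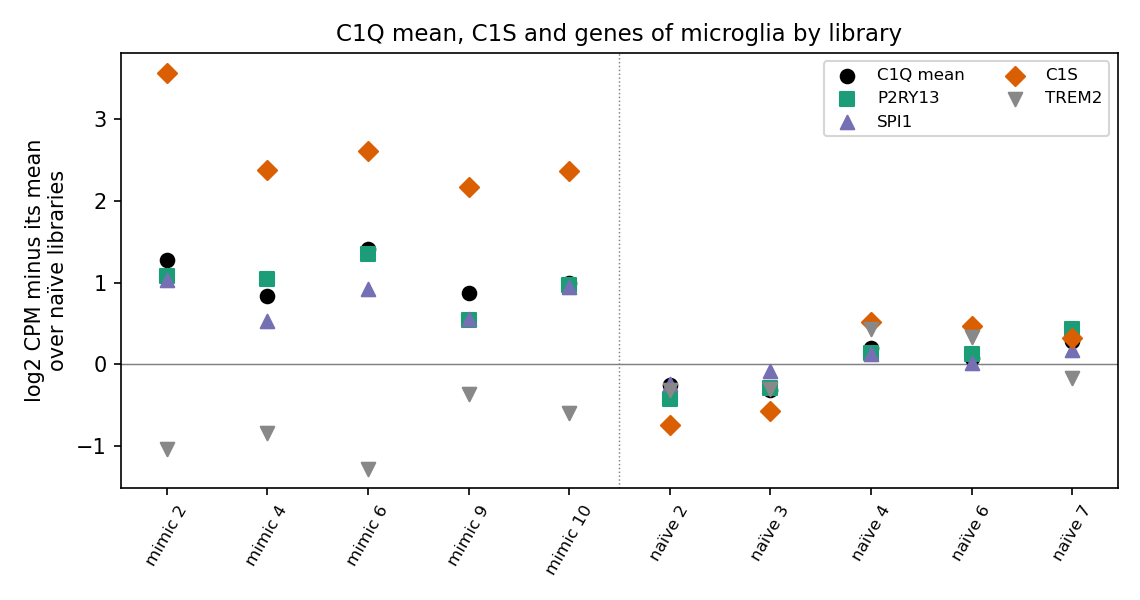
Log2 CPM of the mean of the chains, C1S, P2RY13, SPI1 and TREM2 in each library, less the mean of the naïve libraries (y axis), with mimic libraries left and naïve libraries right of the dotted line. P2RY13, which came first in the ranking by closeness to the chains, lies close to their mean in both groups. SPI1 lies below that mean in every mimic library. C1S lies between 2.17 and 3.56 in mimic libraries, and TREM2 lies below 0 there.

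Of 26 genes listed for microglia, 4 could be identified by name and were tested, P2RY13, SPI1, TREM2 and HPGDS. By edgeR, 0 of them were called higher and 0 lower over all genes, although all 4 had an unadjusted p under 0.05, as had 7.45% of all genes tested, and by DESeq2 at the study's settings 2 were called higher. All 4 had been listed by the study from these libraries, and only listed genes could be identified, so nothing is read from this count. Their summed level was 68.8 to 145.3 CPM in mimic libraries and 57.2 to 78.6 CPM in naïve libraries, and the top mimic value, in library 10, came with 97.7 CPM of HPGDS, a prostaglandin D synthase gene. The log2 ratio of summed C1q to this sum ran from −0.19 to 0.89 in mimic libraries and from −0.17 to 0.20 in naïve libraries. The groups overlapped, with mimic library 10 the lowest and the other 4 mimic libraries from 0.45 to 0.89. HPGDS averaged 51.8 CPM of the mean sum of 97.5 CPM after the mimic, and TREM2, also summed, was lower after the mimic. The ratio therefore depends on which genes were summed, and nothing is read from it. The defining markers CSF1R, CX3CR1 and AIF1 could not be looked up, and the part of microglia numbers in the higher C1q level was not tested.

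Of 99 markers listed over all cell types, 8 could be identified by name, among them the 4 microglia genes, and 6 were tested. Names came only from the study's gene tables, so most markers of other cells could not be looked up. Those that could are given as a description. AVD (ENSGALG00000023622), the avidin gene, was at 230.0 ± 152 CPM (SD, n = 5) after the mimic and 1.24 ± 0.596 CPM (SD, n = 5) in naïve chicks. It was the only gene identified of those listed for blood leukocytes, and nothing about the presence of these cells is read from it. FOLR1, a gene of the choroid plexus, averaged 0.056 CPM after the mimic and 5.74 CPM in naïve chicks, with its highest count, 53, in naïve library 7, without which the naïve mean was 0.45 CPM. SLC6A13, a gene of the meninges, averaged 0.15 ± 0.14 CPM (SD, n = 5) after the mimic and 5.49 ± 6.98 CPM (SD, n = 5) in naïve chicks. Without naïve library 7 its naïve mean was 6.61 CPM, and the naïve libraries ran from 0 to 13.2 CPM. Neither FOLR1 nor SLC6A13 passed the filter on low counts, so neither was tested. RBFOX3 (ENSGALG00000032889), a gene of neurons, was present in every library with at least 204 counts, at 84.5 ± 23.3 CPM (SD, n = 5) after the mimic and 115.8 ± 19.8 CPM (SD, n = 5) in naïve chicks. Its groups overlapped, and its log2 fold change was −0.45 (adjusted p = 0.612 by edgeR). The part of such cells in the C1q and C1S levels was not tested.

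No further gene of the complement pathway could be examined. Of 83 genes listed for complement, its regulators and receptors and for proteins with C1q-like domains, only these 4 could be matched to an identifier in the counts by the names at hand.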

How the data were processed

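Bulk MARS-seq libraries were prepared from PO/AH RNA. The authors used cutadapt for trimming, STAR for alignment against the 3′ ends of genes in galGal5 and HTSeq for counting, with reads of the same gene and UMI counted once and a correction for saturation. Tool versions were not stated. The values used are the deposited UMI counts of each gene. The 10 further deposited columns, which hold normalized counts of the same libraries, were not used, and the deposited thresholds (other values, read from the authors' settings sheet) set the call rule.

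The software was R 4.3.3 with the packages edgeR 4.0.16, DESeq2 1.42.0 and limma 3.58.1. Groups came from the condition in each deposited column name. Genes were filtered by filterByExpr (minimum count 10), scaled by TMM and fitted with edgeR's quasi-likelihood test (robust, two-sided), and p-values were adjusted by Benjamini-Hochberg over 8585 genes. The standard error of a log2 fold change is its size divided by the square root of the F statistic. Log2 CPM used a prior count of 2, ratios of counts a pseudocount of 0.5, and shares exact Clopper-Pearson 95% intervals. The SD from counting alone is that of Poisson counts. The closest libraries of a group differed by a chi-square of 8.55 per gene, more than sampling noise gives, so none was merged as a library deposited again.

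Gene names came from the study's supplementary gene tables, which pair 157 identifiers with a symbol, 121 of them among the genes tested. The genes named are the 4 members, the microglia genes that could be identified, and the 5 genes with a symbol whose log2 ratio to the mean of the chains varied least. LPCAT3 and the markers of other cells were added after their values were seen. The members and lists were chosen with earlier results of these data known.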

Additional observations from a re-analysis of the deposited data

Results flagged for a closer look

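Single libraries were checked for values far from the rest of their group, over 42 groups of 5 libraries, where chance gives about 1 in 20. The 2 found are close to the number that chance gives. Mimic library 2 was set apart for C1S, at 23.3 CPM where the next mimic library was at 11.8 CPM. Without it the log2 fold change of C1S was 2.65. Mimic library 10 was set apart for HPGDS, at 97.7 CPM where the next mimic library was at 47.4 CPM, which raises the summed level of the microglia genes in that library. The 3 chains had no library set apart in this way in either group.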

How the results depend on the processing

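The methods describe no pairs of mimic and naïve chicks, and the groups were fitted without pairing. No paired analysis was possible by replicate number, because column-name numbers and sample-label replicate numbers are different sets and could not be matched. The log2 fold changes of the 4 genes kept their sign and stayed within 1 SD of the libraries in all 15 alternatives each. With 1 library left out they ranged from 0.88 to 1.19 for C1QA, from 1.17 to 1.31 for C1QB, from 0.94 to 1.14 for C1QC and from 2.65 to 3.19 for C1S. The number of genes called higher was 36 with DESeq2 at the study's settings and 27 at an adjusted p of 0.1, against 12 in edgeR, and ranged from 6 to 18 with 1 library left out. It was 6 without naïve library 2, 7 without naïve library 4 and 7 without naïve library 6. DESeq2 called 5 genes lower, against 2 in edgeR, and limma-voom called 11 genes higher. The DESeq2 fit used the filter on low counts applied here, which the study's methods do not describe. Its counts are therefore not the study's own. Of the 4 genes described here 3 were called higher, and 2 to 4 were when 1 library was left out, 4 with DESeq2 or at an adjusted p of 0.1, and 2 with limma-voom. Of the microglia genes 2 were called higher with DESeq2, 1 at an adjusted p of 0.1, 1 without mimic library 9 and 1 without naïve library 7 (0 to 1 with 1 library left out). The cause of these differences was not tested. Nothing is read from the counts of the 4 genes or of the microglia genes, which had been listed from these same libraries. The ratios of counts kept within 1 SD under pseudocounts of 2 and 0.1 and with each library left out. C1S is limited by depth in naïve chicks, at 4 to 12 counts per library, and all intervals cover counting error only. Counts for the complement list were not run apart from the 4 genes, the only ones identified in it.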
